A study of Mus musculus with 4 samples.

Results

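The 10 genes described here carry out presentation of peptides on major histocompatibility complex (MHC) class I: the heavy chains H2-K1, H2-D1 and H2-T23, their light chain B2m, the peptide transporter subunits Tap1 and Tap2, the loading factor Tapbp, the immunoproteasome subunits Psmb8 and Psmb9, and the transcriptional activator Nlrc5. They were chosen by name as a pathway, with earlier results of these data known, and all 10 were among the 18220 genes measured in either of the study's cell tables. The study profiled allografted hind limb sarcomas by droplet single-cell RNA sequencing, in which each RNA molecule is counted by a unique molecular identifier (UMI). Host mice received i.p. injections of PBS (vehicle, 2 mice) or of digoxin at 2 mg/kg, made up in DMSO and diluted in PBS (2 mice), every 24 h, and tumors were taken after 4 doses. Digoxin is a cardiac glycoside, an inhibitor of the sodium pump. Every sample carries floxed Trp53 (Trp53flox/flox) on a 129/SvJae background, in vehicle and digoxin mice alike. The labels do not give the age of the mice, how the alleles were recombined, or whether the tumors came from 1 cell line. The mouse was the replicate throughout, and its 2 mice per group set the precision of every comparison.

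Class I molecules show short peptides from the cell's own proteins to CD8+ T cells, and they also engage inhibitory and activating receptors of natural killer (NK) cells. The proteasome cuts the peptides, and Psmb8 and Psmb9 replace constitutive subunits when the immunoproteasome is formed. Tap1 and Tap2 carry the peptides into the endoplasmic reticulum, where Tapbp (tapasin) holds the empty heavy chain and B2m at the transporter. Interferon gamma raises most of these genes, in part through Irf1, and Nlrc5 acts at their promoters. Low class I expression is a known route by which tumors escape T cells.

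By the GENCODE M21 annotation of GRCm38, 8 of the 10 genes lie on chromosome 17, within 33915899 to 36032855, while B2m is on chromosome 2 and Nlrc5 on chromosome 8. Psmb9 and Tap1 are transcribed away from each other, and their annotated ends overlap by 212 bases at chr17:34187553-34187764. Promoter sequence from RefSeq (GRCm38.p6, the 250 bases before the annotated start) was matched for 8 of the 10 genes. By the GENCODE positions, the windows of Tapbp, Psmb8, Psmb9 and H2-D1, and most of that of H2-T23, lie inside the gene. A search of both strands found the interferon regulatory factor element AANNGAAA in 4 of the 8 (B2m, H2-D1, H2-K1 and H2-T23), against 21.3% of all 32851 promoters. The X2 box core TGACG was in 5 of the 8, against 17.8% of all promoters, and CCAAT, the Y box core, was in 7 of the 8, against 33.8%. The Psmb9 and Tap1 windows overlap and share a TGACG and a CCAAT site, which both counts take for each gene. The NF-kB site GGGGATTCCCC was in 2 of the 8, H2-K1 and H2-D1, and in 10 of all promoters (0.0304%). A match is a description of the letters and not evidence of binding. The H2-K1 and B2m promoters are printed because H2-K1 differed most between mice among the heavy chains and B2m less, and they hold 4 and 3 of these motifs. H2-K1 lies at chr17:34000348-34000597 on the minus strand and B2m at chr2:122147437-122147686 on the plus strand. Capitals mark the motifs, read on either strand:
H2-K1: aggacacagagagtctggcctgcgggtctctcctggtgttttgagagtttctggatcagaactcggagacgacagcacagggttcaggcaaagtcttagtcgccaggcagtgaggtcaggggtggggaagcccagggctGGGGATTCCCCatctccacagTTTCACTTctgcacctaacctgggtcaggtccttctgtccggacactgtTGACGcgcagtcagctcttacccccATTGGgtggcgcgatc
B2m: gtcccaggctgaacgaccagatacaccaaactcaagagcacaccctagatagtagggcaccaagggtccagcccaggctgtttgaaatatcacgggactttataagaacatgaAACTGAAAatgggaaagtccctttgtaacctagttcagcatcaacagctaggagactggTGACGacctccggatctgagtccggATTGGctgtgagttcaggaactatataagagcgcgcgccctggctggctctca

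The NF-kB site and the interferon element stood next to each other in both classical heavy chain genes, 111 to 83 bases before the H2-K1 start and 171 to 143 bases before the H2-D1 start. The stretch of 29 bases is shown for both genes because their products are close relatives. It differed at 1 base, A18T, counted from 1 at its first base with the H2-K1 base first. In H2-D1 it falls within the first exon of a longer GENCODE transcript. Both motifs are in capitals:
H2-K1 element: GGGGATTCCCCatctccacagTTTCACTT
H2-D1 element: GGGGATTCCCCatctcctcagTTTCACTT

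The malignant cells numbered 3976 to 6269 per mouse, with 255961531 to 350781642 UMIs. The non-malignant cells numbered 3014 to 3344 per mouse. The median malignant cell of each mouse had 46799 to 57658 UMIs, and the median non-malignant cell 15837 to 16671. Pairs of mice shared 14 to 25 cell barcodes, and the tables of 1 mouse shared none. Cell types keep the deposited names, 3 of which went against their markers. The cluster named Epithelial held the endothelial genes Cdh5 (859 to 971 CPM) and Pecam1 (822 to 883 CPM), with Epcam at 0 to 0.358 CPM. The cluster named Microglia held Siglech, which marks plasmacytoid dendritic cells, at 2178 to 2592 CPM, with the microglia gene Tmem119 at 0 to 2.75 CPM. P2ry12, another microglia gene, was 14.5 to 31.9 CPM there, against 26.9 to 57.6 CPM in macrophages. A sub-cluster deposited under T cells as unknown had summed T cell markers of 0, 0, 0 and 57.4 CPM in the 4 mice and summed dendritic cell markers of 487 to 856 CPM. CPM is a gene's UMIs per 1000000 UMIs of a cell, averaged over the cells of a mouse. One library stood apart in the sex of its host: in non-malignant cells Xist was 722, 6.09, 817 and 788 CPM in vehicle replicates 1 and 2 and digoxin replicates 1 and 2, and the Y-linked Ddx3y was 1.77, 86.0, 1.72 and 2.14 CPM. Vehicle replicate 2 thus differed from the other 3 mice. Malignant cells carried Ddx3y at 43.1 to 49.3 CPM in all 4 mice. Values below are given in that order of mice.

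Among malignant cells and the 10 named clusters, the CPM of class I genes was lowest in malignant cells and highest in dendritic cells, with T cells next for 8 of the 10 genes. The cluster deposited as Unknown, 30 cells of vehicle replicate 2, was left out of this order: it lay below the malignant cells of that mouse for all 10 genes, with H2-K1 at 39.9 against 97.7 CPM. Its Xist level was 596 CPM, against at most 0.631 CPM in the other clusters and 0.462 CPM in the malignant cells of that mouse. Its Ddx3y level was below those of all these other populations. The pooled non-malignant levels of vehicle replicate 2 given above include these cells. H2-K1, a classical heavy chain, stood at 97.7 to 393 CPM in malignant cells, 1022 to 1631 CPM in macrophages, 3186 to 3760 CPM in T cells and 3115 to 3897 CPM in dendritic cells. The dendritic and T cell ranges overlapped, and each lay above those of all other clusters. H2-D1 spanned 136 to 394 CPM in malignant cells and 3352 to 3935 CPM in dendritic cells. B2m was 447 to 782 CPM in malignant cells and 4107 to 4627 CPM in dendritic cells, and its ranges from T cells down to osteoclasts overlapped from each cluster to the next. By the mean over the 4 mice, malignant cells held the lowest level of 9 of the 10 genes, against 8.22% of 14445 genes tested in both malignant and non-malignant cells. For 7 of those 9 the malignant range did not reach the range of the next cluster, as for 1.81% of all genes, the exceptions being Psmb8 and Psmb9, whose ranges overlapped that of the Fibroblast cluster. Nlrc5 also reached 0 CPM in single mice of the B cell, Neutrophil and Microglia clusters, so those ranges cover the malignant one, and its Fibroblast range of 1.41 to 6.87 CPM overlapped it. Dendritic cells held the highest level of 9 genes, measured on only 10 to 21 cells per mouse. Clusters were made from these cells' expression, so the order is a description. CPM is a share of a cell's UMIs, and malignant cells held more UMIs. The median malignant cell held 35, 17, 28 and 25 UMIs of B2m, against 33, 23, 31 and 30 in macrophages. For H2-K1 it held 15, 2, 8 and 8, against 22, 12, 20 and 20. For Tapbp it held 6, 4, 5 and 4, against 3, 2, 2 and 2.

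**Figure D1:**
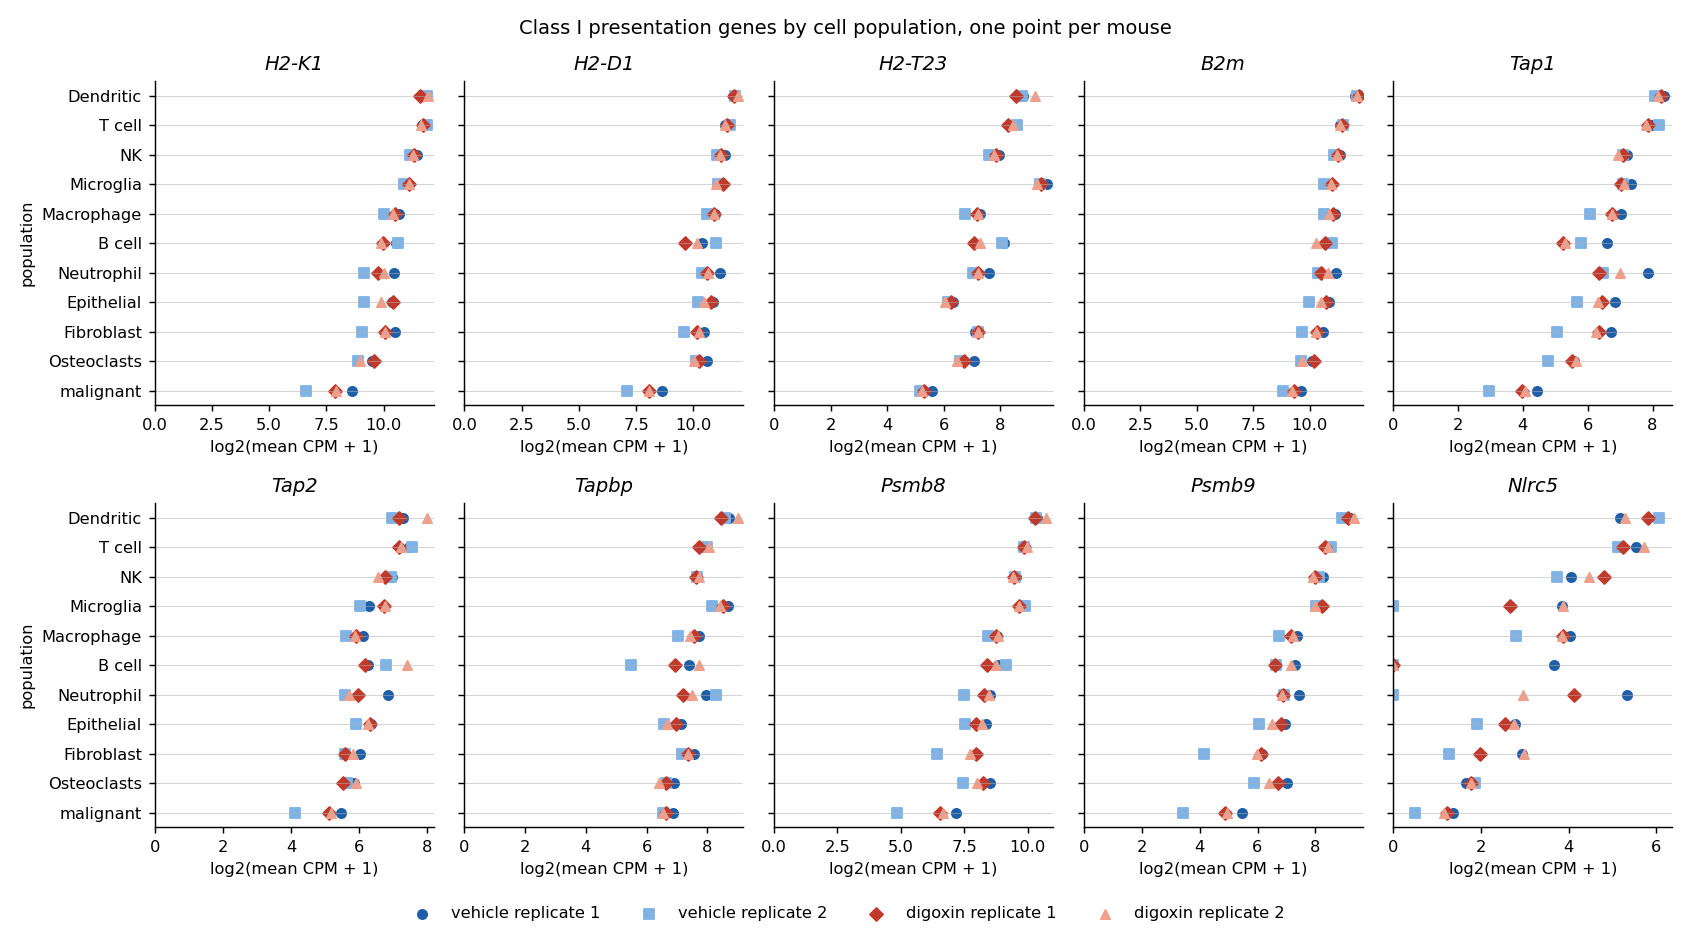
Each panel plots 1 gene, with log2(mean CPM + 1) on the horizontal axis, the cell population on the vertical axis and 1 point per mouse. The Unknown cluster is not drawn. Of the populations drawn, malignant cells sit at the low end for 9 of 10 genes, and dendritic cells at the high end for 9 of 10.

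The nonclassical heavy chain H2-T23, which encodes Qa-1, the ligand of the inhibitory receptor CD94/NKG2A, departed from that order. It was highest in the cluster named Microglia, at 634 to 798 CPM, above the 377 to 596 CPM of dendritic cells with no overlap. Tapbp was the flattest of the 10 between macrophages and malignant cells. Its macrophage level was 1.44 to 1.90 times the malignant level within each mouse, and that of Tap2 was 1.57 to 2.91 times. Nlrc5 was 9.59 to 14.2 times higher in macrophages, 5.92 to 15.2 CPM against 0.416 to 1.59 CPM, and H2-K1 was 4.15 to 10.5 times higher. The lowest Tapbp level was in osteoclasts (83.0 to 117 CPM), which overlapped the malignant range of 90.9 to 117 CPM. Nlrc5 UMIs were absent from some small clusters of single mice, such as the B cells of 3 mice (4 to 10 cells each).

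Within the deposited macrophage sub-clusters, the M1 range lay above the M2 range for 7 of the 10 genes, all but H2-K1, B2m and Tapbp, and for 11.3% of all genes tested in macrophages. Psmb8 was 583, 515, 540 and 561 CPM in M1 cells and 276, 253, 306 and 342 CPM in M2 cells, with no overlap. H2-T23 was 202 to 227 CPM in M1 cells and 59.6 to 92.9 CPM in M2 cells, and Tap1 was 122 to 171 CPM against 39.5 to 76.9 CPM. H2-K1 overlapped, at 1420 to 1721 CPM in M1 and 842 to 1614 CPM in M2. The unknown sub-cluster deposited under T cells, with dendritic cell markers as given above, held H2-K1 at 679 to 1118 CPM and Psmb8 at 1381 to 1957 CPM. It numbered 8, 7, 9 and 11 cells.

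In malignant cells, the vehicle mice stood on either side of both digoxin mice for all 10 genes, with vehicle replicate 1 the highest, as in 11% of all genes, and the digoxin mice were almost equal. H2-K1 was 393, 97.7, 235 and 240 CPM, so vehicle replicate 1 was 4.02 times vehicle replicate 2 while the digoxin mice differed by 1.02 times. H2-D1 was 394, 136, 267 and 266 CPM. Vehicle replicate 1 was the highest and vehicle replicate 2 the lowest for both classical heavy chains. B2m, the light chain that the heavy chains share, was 782, 447, 631 and 585 CPM, a smaller gap of 1.75 times. H2-T23 was 47.2, 34.5, 38.7 and 36.9 CPM. These means rest on at least 7674 UMIs of each of the 4 genes in every mouse, so counting error is small beside the gaps.

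**Figure D2:**
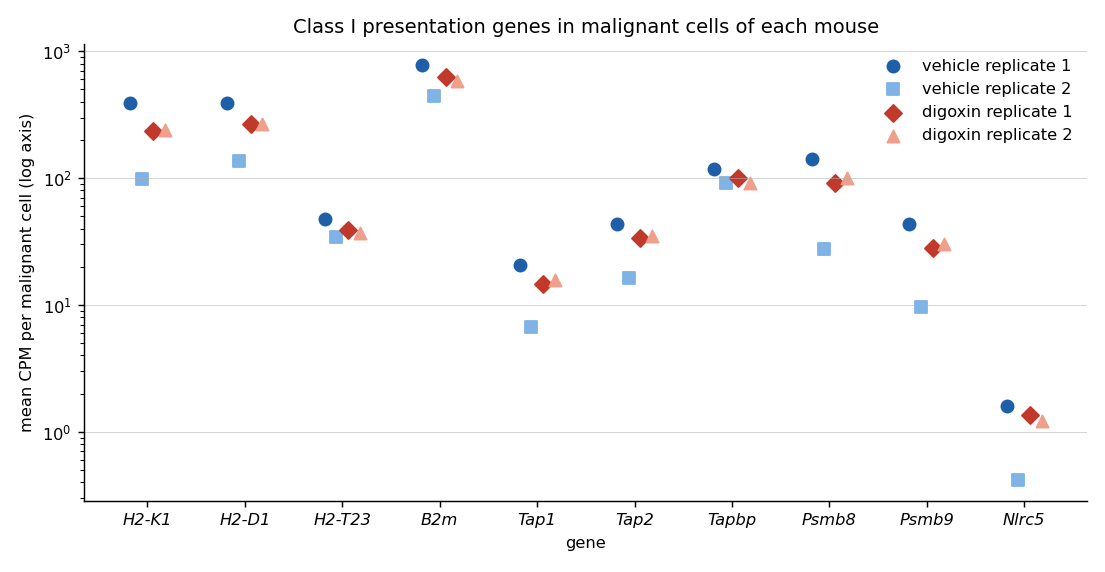
Mean CPM per malignant cell on a log axis for each of the 10 genes, with 1 point per mouse. For every gene, vehicle replicate 1 is the highest and vehicle replicate 2 the lowest, with both digoxin mice between them.

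The immunoproteasome and the transporter moved with the heavy chains. Psmb8, which supplies chymotrypsin-like activity to the immunoproteasome, was 142, 27.7, 92.0 and 100 CPM, a gap of 5.11 times between the vehicle mice. Psmb9 was 43.7, 9.65, 28.2 and 30.0 CPM. Both had the widest gaps of the 10 genes. Tap1 was 20.6, 6.70, 14.7 and 15.8 CPM, and Tap2 was 43.7, 16.4, 33.7 and 35.0 CPM. Tapbp, which bridges the transporter and the empty class I molecule, was 117, 90.9, 99.2 and 91.7 CPM, the narrowest gap at 1.29 times. Nlrc5 was rare, with 1.59, 0.416, 1.34 and 1.22 CPM from 489, 123, 340 and 273 UMIs. It ran in the same order, high in vehicle replicate 1 and low in vehicle replicate 2.

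Few genes of the malignant cells differed as much between the vehicle mice. On the log2(mean CPM + 1) scale, 6 of the 10 genes were more than 1 higher in vehicle replicate 1, against 0.28% of the 17138 genes tested. The median difference of the 10 was 1.42, against 0.0018 over all genes. Ranked by this difference, Psmb8 was 2nd, Psmb9 4th, H2-K1 5th, H2-D1 14th, Tap1 16th and Tap2 21st, behind Xist in first place. The third was H2-Q4, another class I heavy chain, at 7.94, 1.08, 4.85 and 4.78 CPM. The interferon-induced chemokine gene Cxcl9 was also in the first 20, at 67.2, 19.4, 38.0 and 46.5 CPM. So were genes of other kinds, such as Acta2 (56.4, 16.2, 25.1 and 42.3 CPM), C1qtnf3 and Fdps (160, 60.3, 112 and 125 CPM). The comparison sets 1 mouse against 1 mouse and has no test. H2 genes include near-identical copies, so how the counting assigned their reads is uncertain, and the submitters' build mm10 derives from another strain than these mice.

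The median malignant cell held H2-K1 at 246, 44.2, 130 and 138 CPM. At percentile 90 of the cells it was 903, 214, 541 and 540 CPM, so the vehicle mice were apart at both levels. With each cell thinned to 5000 UMIs, 66.3%, 27.6%, 51.5% and 52.9% of malignant cells held at least 1 UMI of H2-K1, against 97.0%, 76.8%, 93.6% and 94.6% without thinning. Thinned shares for Psmb8 were 41.3%, 10.5%, 29.9% and 31.7%. B2m was found in most cells at that depth, 91.1%, 81.7%, 87.6% and 85.2%. Cells with fewer than 5000 UMIs were left out, 4 to 9 per mouse. Free RNA can give such UMIs: 60.2% to 71.3% of malignant cells carried at least 3 macrophage markers, and no cluster lacks class I to set a background share, so these shares do not count expressing cells. From cell to cell within a mouse, H2-K1 tracked H2-D1 with a Pearson r of 0.755 to 0.847, and Psmb8 tracked Psmb9 at 0.585 to 0.686. Against cell depth r was -0.056 to 0.044 for H2-K1, -0.032 to 0.086 for Psmb8 and -0.342 to -0.277 for B2m. These correlations are over 3976 to 6269 cells that share a library, and near-identical sequence can add to the one between H2-K1 and H2-D1.

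**Figure D3:**
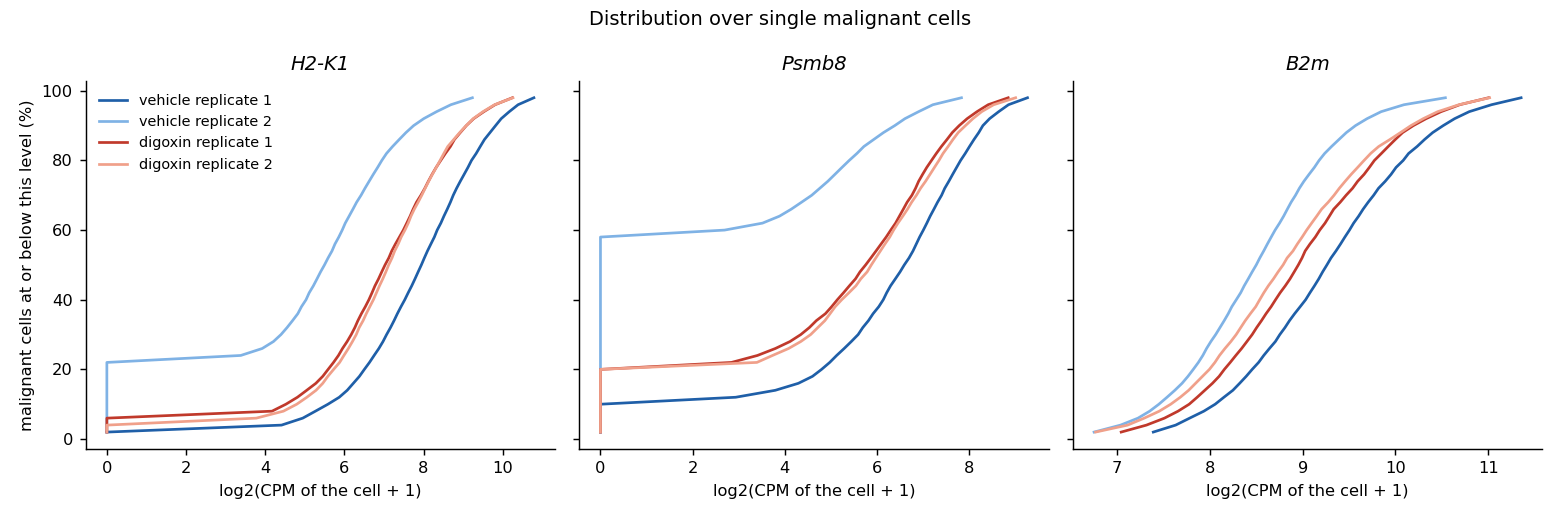
Percent of malignant cells at or below each level, against log2(CPM of the cell + 1), for H2-K1, Psmb8 and B2m with 1 line per mouse. The line of vehicle replicate 2 lies to the left and that of vehicle replicate 1 to the right, with the digoxin mice between them.

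The gap between the vehicle mice was also present in macrophages, osteoclasts, the Fibroblast cluster and the endothelial cells named Epithelial, and smaller in NK cells and mostly of opposite sign in T cells. In macrophages, vehicle replicate 1 was higher for 10 of 10 genes, against 59.5% of all genes, with a median log2 difference of 0.58 against 0.06 over all genes. H2-K1 was 1631, 1022, 1462 and 1374 CPM and Tap1 was 131, 66.7, 107 and 107 CPM there. Both digoxin mice lay between the vehicle mice for 9 of 10 genes in macrophages, against 15.9% of all genes with vehicle replicate 1 the highest. The same order held for 8 of 9 in the Fibroblast cluster (15.6% of all genes), 8 of 10 in the cluster named Epithelial (9.69%) and 2 of 9 in osteoclasts (9.29%). The median difference was 0.92 over the 9 genes tested in the Fibroblast cluster (0.08 over all genes) and 0.85 in the cluster named Epithelial (-0.0008). Differences of at least 1 were seen for 4 of 9 genes in the Fibroblast cluster, against 8.80% of all genes. In the cluster named Epithelial they were seen for 2 of 10, against 4.36%. In osteoclasts the median difference was 0.49 over 9 genes (0.05 over all genes), where the digoxin mice differed by a median of 0.26 in size. In the cluster named Microglia it was 0.23, with 8 of 9 genes higher in vehicle replicate 1 (51.2% of all genes) and the digoxin mice between the vehicle mice for 1 of 9 (8.87%). Fibroblast Psmb9 was 70.9, 16.8, 68.7 and 62.3 CPM. In T cells vehicle replicate 1 was higher for 2 of 10 genes, against 49.9% of all genes, and the median was -0.15, with H2-K1 at 3228, 3760, 3414 and 3186 CPM. Summed macrophage markers were 964, 3216, 1780 and 2071 CPM in T cells, and their part in these values was not tested. In NK cells vehicle replicate 1 was higher for 9 of 10 genes, against 53.8% of all genes, with a median of 0.21. Whether populations differ in this gap was not tested, since it compares single mice.

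**Figure D4:**
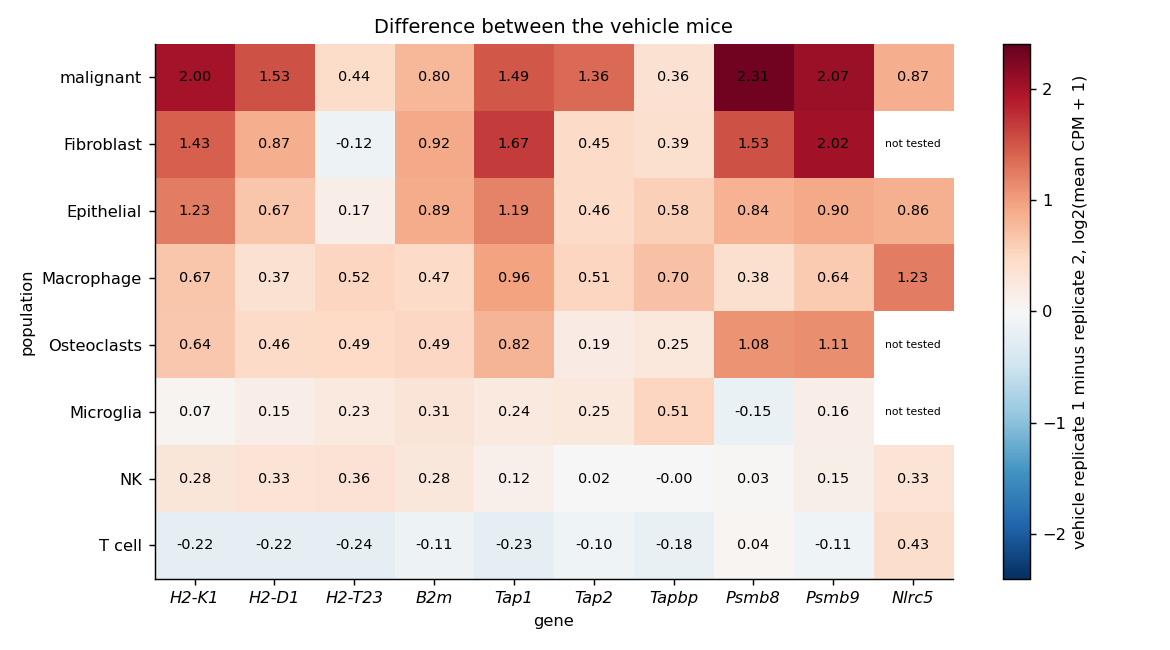
Difference in log2(mean CPM + 1) between vehicle replicate 1 and vehicle replicate 2, with genes across and populations down, and the value printed in each cell. Malignant cells reach 2.31 for Psmb8, and most T cell values lie below 0.

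Other measurements of the 4 mice follow, and their part in the class I gap was not tested. The median mitochondrial share of UMIs was 4.98%, 6.24%, 4.64% and 4.42% in non-malignant cells, highest in vehicle replicate 2, and 5.80%, 5.93%, 5.58% and 5.19% in malignant cells. The Fibroblast cluster of vehicle replicate 2 had the lowest median depth, 18866 UMIs against 28822 to 36748.5 in the other mice, and its osteoclasts numbered 152 against 28 to 47. Host sex markers separated vehicle replicate 2 from the other 3 mice, as given above. Macrophage markers, 9 of 9 detected in malignant cells, summed to 614, 624, 465 and 481 CPM there, nearly equal in the vehicle mice. In macrophages themselves they summed to 21425, 31634, 22191 and 25443 CPM, so equal sums in malignant cells need not mean equal shares of macrophage RNA. Malignant cells without a UMI of any macrophage marker, 171, 140, 102 and 52 cells, held H2-K1 at 331, 70.5, 202 and 240 CPM. These cells held B2m at 787, 503, 674 and 595 CPM and Nlrc5 at 0.568, 0.303, 0.626 and 0 CPM. For Nlrc5, Tap1, Tap2 and Tapbp a digoxin mouse lay outside the vehicle mice in these cells, and for the other genes both lay between. The macrophages of vehicle replicate 2 were 712 M1, 1511 M2 and 233 highly proliferative M2 cells, against 1095, 948 and 375 in vehicle replicate 1. Within M2 cells alone H2-K1 was 1614 and 842 CPM in the vehicle mice, and within M1 cells 1721 and 1453 CPM.

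Interferon gamma (Ifng) RNA was 56.3, 46.1, 55.8 and 67.4 CPM in T cells and 55.1, 48.8, 65.7 and 26.6 CPM in NK cells, and at most 0.090 CPM in malignant cells. Over all non-malignant cells it was 6.28, 2.86, 6.11 and 4.07 CPM, lowest in vehicle replicate 2 and highest in vehicle replicate 1 as for class I. There were 183, 110, 155 and 131 T cells and 144, 69, 150 and 141 NK cells. The part of these differences in the class I gap was not tested. In malignant cells Irf1, a transcription factor induced by interferon, was 53.4, 37.8, 38.1 and 48.6 CPM. The receptor subunits Ifngr1 (75.7, 70.8, 72.5 and 65.4 CPM) and Ifngr2 (60.5, 56.5, 53.6 and 50.2 CPM) differed little. Of 17 class I transcription factors, Irf1 among them, 11 were higher in vehicle replicate 1, by a median log2 of 0.055. Of 9 interferon ligands and receptors, 5 were higher there, against 50.6% of all genes. Of 17 genes of peptide supply and loading, 14 were higher in vehicle replicate 1, against 50.6% of all genes in malignant cells, by a median log2 of 0.25, and none by more than 1. The constitutive proteasome subunit Psmb5, which Psmb8 replaces, was 365, 313, 327 and 375 CPM. In T cells, 9 of 13 tested genes for lymphocyte receptors of class I and their relatives were more than 1 higher on the log2 scale in vehicle replicate 1, against 3.25% of all genes. Cd8a, the coreceptor of class I-restricted T cells, was 143 CPM in vehicle replicate 1 and 58.3 CPM in vehicle replicate 2. The deposited T cell sub-clusters also differed in number, with 30 and 8 CD8 cells, 52 and 11 NKT cells and 35 and 65 Treg cells in vehicle replicates 1 and 2, of 183 and 110 T cells. The part of that mixture in the receptor values was not tested.

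Against that spread, digoxin did not change any of the 10 genes past the threshold in any population. The malignant fit by limma covered 17138 genes, of which 0% had an adjusted p under 0.05. An unadjusted p under 0.05 was reached by 585 genes (3.41%), none of them among the 10. H2-K1 was 245 ± 209 CPM (SD, n = 2) with vehicle and 237 ± 3.42 CPM (SD, n = 2) with digoxin, and its log2 difference of 0.27 had an interval from -1.24 to 1.79. The CPM means run the other way because the difference is between means of log2 values, in which the low vehicle replicate 2 weighs more. For B2m the difference was 0.04 (-0.60 to 0.67). Psmb8 had the highest difference, 0.60, with an interval from -1.16 to 2.36, and Tapbp the lowest, -0.11 (-0.44 to 0.21). Intervals are 95% intervals from limma. The widths do not exclude changes of more than 2 times in H2-K1, H2-D1, Tap1, Tap2 or the immunoproteasome genes. Nor do they for Nlrc5, at 0.416 to 1.59 CPM, since adding 1 CPM before the log understates its changes. The differences of the 10 had a median of 0.26, with 8 above 0, against a median of -0.0058 over all genes, of which 47.2% were above 0. These summaries depended on the fit and on the vehicle mice: 5 of the 10 were above 0 in edgeR (median 0.04) and in DESeq2 (median 0.04), 10 without vehicle replicate 1 (median 1.00) and 0 without vehicle replicate 2 (median -0.39). Not one of the 10 had both digoxin mice on the same side of both vehicle mice, which 12.8% of genes did upward and 16.5% downward.

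Standard errors of the malignant differences ran from 0.13 for Tapbp to 0.70 for Psmb8. H2-D1 differed by 0.21 (SE 0.47, unadjusted p = 0.68) and H2-T23 by -0.09 (SE 0.15, unadjusted p = 0.57) in limma. Psmb9 differed by 0.47 (SE 0.63, unadjusted p = 0.49), Tap1 by 0.34 (SE 0.46, unadjusted p = 0.49), Tap2 by 0.34 (SE 0.42, unadjusted p = 0.45) and Nlrc5 by 0.25 (SE 0.27, unadjusted p = 0.39) in limma. H2-K1 had an SE of 0.61 (unadjusted p = 0.67), B2m of 0.25 (unadjusted p = 0.89), Psmb8 of 0.70 (unadjusted p = 0.43) and Tapbp of 0.13 (unadjusted p = 0.43) in limma. The adjusted p from limma was 1.00 for each of the 10. edgeR called 0 genes and DESeq2 called 45 (0.263%), none of them among the 10. The sign of the H2-K1, H2-D1 and B2m differences was negative in edgeR and DESeq2.

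The absence of calls depended on vehicle replicate 1. Without it, both digoxin mice were above the remaining vehicle mouse, and limma called H2-K1 (1.27 higher, adjusted p = 0.0458) and Psmb8 (1.76 higher, adjusted p = 0.0386) in malignant cells, against 0.0288% of all genes. In the Fibroblast cluster 6 of the genes were then called, B2m, H2-D1, H2-K1, Psmb8, Psmb9 and Tap1, against 4.69% of all genes, and 4 in the cluster named Epithelial, B2m, H2-D1, H2-K1 and Psmb8, against 3.2%. Other cell types' markers moved in both clusters. Summed mast cell markers, 5 of 5 detected, were 59.4, 260, 4709 and 5304 CPM in the cluster named Epithelial, and summed macrophage markers, 9 of 9 detected, were 417, 846, 1035 and 1174 CPM there and 459, 138, 686 and 625 CPM in the Fibroblast cluster. Their part in these calls, and in the gap between the vehicle mice there, was not tested. In macrophages Nlrc5 was called (1.06 higher, adjusted p = 0.0487), against 0.931% of all genes. Without vehicle replicate 2, none was called, and the malignant difference of H2-K1 became -0.72. A single vehicle mouse has no spread of its own in these fits and is assumed to vary like the digoxin mice. Without vehicle replicate 1, that mouse was vehicle replicate 2, which also differed from both digoxin mice in host sex markers. Digoxin and host sex cannot be told apart in those fits.

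**Figure D5:**
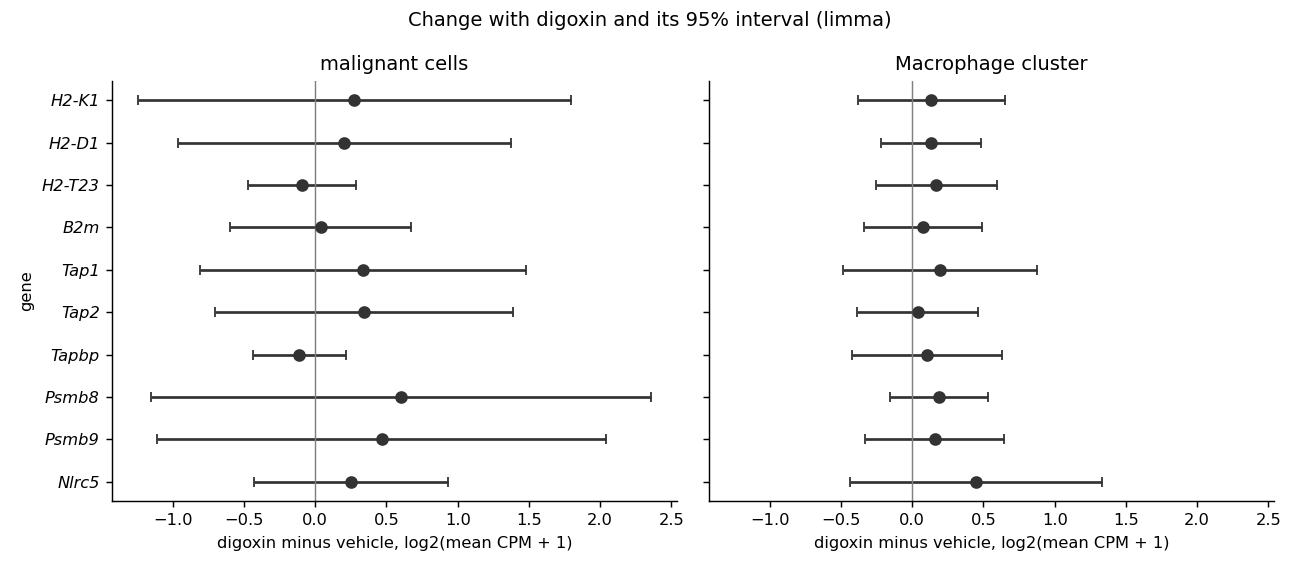
Difference in log2(mean CPM + 1) between digoxin and vehicle mice with its 95% interval from limma, for the 10 genes in malignant cells and in macrophages. Every interval includes 0, and those of H2-K1, Psmb8 and Psmb9 are wider in malignant cells than in macrophages.

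In macrophages the 10 differences were all above 0 and small, from 0.04 to 0.45, with a median of 0.15 against -0.0053 over all genes, of which 48.5% were above 0. That direction rested on vehicle replicate 2: without it 1 of the 10 was above 0 (median -0.16), and without vehicle replicate 1 all 10 were (median 0.44). H2-K1 was 1326 ± 431 CPM with vehicle and 1418 ± 62.6 CPM with digoxin (SD, n = 2 each). Its log2 difference was 0.13 (SE 0.22, unadjusted p = 0.55 in limma). Psmb8 was 441, 340, 431 and 451 CPM, with a difference of 0.19 (SE 0.14, unadjusted p = 0.23 in limma). Only digoxin replicate 2 lay above both vehicle mice for that gene. Nlrc5 differed by 0.45 (SE 0.37, unadjusted p = 0.26 in limma) and Tap1 by 0.20 (SE 0.28, unadjusted p = 0.51 in limma). The other heavy chains, H2-D1 (0.13, SE 0.15, unadjusted p = 0.40) and H2-T23 (0.17, SE 0.18, unadjusted p = 0.37), and B2m (0.07, SE 0.17, unadjusted p = 0.68), were close to 0 in limma. So were Psmb9 (0.16, SE 0.20, unadjusted p = 0.46), Tapbp (0.10, SE 0.22, unadjusted p = 0.66) and Tap2 (0.04, SE 0.18, unadjusted p = 0.83) in limma. The adjusted p was 1.00 for each in limma, whose calls were 0% of 13734 genes. In macrophages 555 genes (4.04%) reached an unadjusted p under 0.05. DESeq2 called 20 genes (0.146%) and edgeR 0, none among the 10.

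Outside macrophages, 2 differences had an unadjusted p under 0.05. Nlrc5 in NK cells was 15.7, 12.3, 27.0 and 21.2 CPM, higher in both digoxin mice as were 19.1% of all genes there, by 0.74 on the log2 scale (SE 0.29, unadjusted p = 0.025, adjusted p = 0.754 in limma). Tap2 in the cluster named Microglia was 77.0, 64.7, 104 and 107 CPM, also higher in both digoxin mice as were 16.7% of all genes there, by 0.58 (SE 0.26, unadjusted p = 0.041, adjusted p = 0.980 in limma). These are 1 of the 10 genes in NK cells, against 6.28% of all genes there, and 1 of 9 in Microglia, against 4.78%. In NK cells Tap1, Tap2, Psmb8 and Psmb9 were lower in both digoxin mice, as were 16.9% of all genes there. Tap2 was 123, 122, 108 and 93.2 CPM in NK cells. In T cells Tap1 and Tap2 were lower in both digoxin mice, as were 19% of all genes. Limma called 0.467% of genes in the cluster named Epithelial, 0.0765% in NK cells, 0.0128% in Osteoclasts and 0% in all non-malignant cells, T cells, Microglia and Fibroblast, and none of these were among the 10.

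The difference in digoxin effect between non-malignant and malignant cells was tested in limma with a term for their interaction and 1 level per mouse. It was not past the threshold for any of the 10 genes. Of 14445 genes 0% were called, edgeR called 0 as well, and 576 (3.99%) reached an unadjusted p under 0.05 in limma. The values, non-malignant minus malignant, ran from -0.44 for Psmb8 (SE 0.56, interval -1.83 to 0.96) to 0.21 for Tapbp (SE 0.11, interval -0.07 to 0.48). The smallest p-value among them was that of H2-T23, with a value of 0.19 (unadjusted p = 0.061, adjusted p = 0.970 in limma). Without vehicle replicate 1, limma called 5 of them, H2-D1, H2-K1, Psmb8, Psmb9 and Tap2, against 1.48% of all genes, the lowest at -1.38 for Psmb8 (adjusted p = 0.0011).

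The wider pathway gave no call either, and no gene of the 5 related lists passed limma's adjusted threshold in any population. Among other class I heavy chains in malignant cells, 0 of 13 were called, the median difference was -0.04, and Fcgrt, the neonatal Fc receptor, was 70.3, 78.8, 66.6 and 53.8 CPM (-0.31, unadjusted p = 0.048). Mr1, which presents vitamin metabolites, differed by -0.31 (unadjusted p = 0.076). In the 17 genes of peptide supply and loading the median was 0.05 in malignant cells, with Thop1 at 0.19 and Psmb10 at 0.19. All 17 had differences above 0 in macrophages, against 48.5% of all genes, where the median was 0.14 and 16 of the 17 were also higher in vehicle replicate 1 than in vehicle replicate 2. Of 17 transcription factors, Nfkb1, a subunit of NF-kB, was 199, 157, 209 and 290 CPM in malignant cells, above both vehicle mice in both digoxin mice (0.48, unadjusted p = 0.046), and Irf9 differed by -0.14. Ifngr2 differed by -0.17 and Ifnar2 by -0.12 there, and the lymphocyte receptor genes Klra8 and Cd8a by 0.17 and 0.08, both below 1 CPM in every mouse.

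In non-malignant cells, the lists were as quiet. Calr, a chaperone of the loading complex, differed by 0.25 (unadjusted p = 0.079) and Pdia3 by 0.19, with 17 of 17 of their list above 0, as were 43.1% of all genes. Ciita, the class II counterpart of Nlrc5, was lower in both digoxin mice, by 0.71 (unadjusted p = 0.067 in limma), as were 20.6% of all genes, and Nfkb1 was higher in both, by 0.28, as were 12.4%. Mr1 differed by -0.33 and Hfe, an iron regulator with a class I fold, by -0.31. Socs1, which restrains interferon signalling, differed by 0.40 and Ifngr2 by -0.08. Klra3 and Klra9, of the Ly49 family of NK receptors, differed by 0.79 and 0.98. In these pooled values, a change in the share of a cell type and a change of RNA per cell cannot be told apart. Within NK cells alone, 8 of 12 tested lymphocyte receptor genes were above 0, against 53.0% of all genes. Their median was 0.20, and 0 were called by limma.

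Over 8 populations and 4 mice (32 values), the members' levels followed each other. Each gene's Pearson r with the mean profile of the other 9 ran from 0.781 for Nlrc5 to 0.984 for H2-K1. The genes most like the mean profile among 15915, outside the lists, were Sp100 (0.948), Slc9a3r1 (0.933), Sp110 (0.932), Phf11b (0.918) and Trim30a (0.915). Sp100 was 2.56, 1.51, 2.08 and 2.31 CPM in malignant cells and 273, 313, 245 and 289 CPM in T cells. These r values describe points that share mice and differ mainly by cell type.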

How the data were processed

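Per the submitters' processing notes, reads were handled with Cell Ranger 3.0.2 and Seurat 3.0.2 on mm10, and the filters and the rule that set malignant cells apart are not given in the sources used here. The authors deposited natural log values, ln(1 + UMIs per 10000 UMIs of the cell), with the UMI count per cell and cell type names. Per the values and the deposited counts per cell, whole UMIs were recovered for 100% of values above 0 (tolerance 0.01). Cells named veh3 belong to vehicle replicate 2 by the deposited cell tables. CPM was averaged over the cells of each mouse, and log2(mean CPM + 1) was fitted with limma 3.58.1 (variance trend, Benjamini-Hochberg, threshold 0.05, R 4.3.3) in malignant cells, all non-malignant cells and 7 clusters with at least 20 cells in every mouse, on genes kept by edgeR's filterByExpr. A log2 difference on this scale understates changes of low genes. The pipeline was tested on simulated data. Alternatives were edgeR 4.0.16 and DESeq2 1.42.0 on summed recovered UMIs, limma-voom, other pseudocounts, no filter, replicate blocks, and fits without single mice, cells with over 20% mitochondrial UMIs, 1404 of 31611 cells (4.44%) marked as doublets by Scrublet (scanpy 1.11.5), or malignant cells with at least 3 of 9 macrophage markers. Doublets stayed in the main values. Of the related lists, the 2 genes with the smallest p per list and compartment were named. The genes, lists and tests were chosen with earlier results of these data known. Nothing says whether the mice of a group were treated separately, so p-values measure only the spread between these mice. Part of the labelled genotype and 1 gene of the related lists are not reported here.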

Additional observations from a re-analysis of the deposited data

Results flagged for a closer look

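Tap2, a subunit of the peptide transporter, stood on opposite sides in different clusters. With digoxin its log2 difference was 0.58 in the cluster named Microglia and -0.29 in NK cells and -0.31 in T cells. Both digoxin mice lay above the higher vehicle mouse in Microglia, as for 16.7% of all genes there. They lay under the lower vehicle mouse in NK cells (16.9% of all genes) and T cells (19%). Whether these differences differ between clusters was not tested, and none passed limma's adjusted threshold.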

How the results depend on the processing

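None of the 10 genes was called in any population under any alternative other than leaving out vehicle replicate 1. Left out 1 mouse at a time, the members called ranged from 0 to 2 in malignant cells, 0 to 4 in Epithelial, 0 to 6 in Fibroblast, 0 to 1 in Macrophage and 0 to 5 for the interaction. The genes called over all genes ranged from 0 to 5 in malignant cells, 0 to 27 in all non-malignant cells, 3 to 341 in Epithelial, 0 to 462 in Fibroblast, 0 to 132 in Macrophage, 1 to 72 in Microglia, 12 to 142 in NK, 0 to 6 in Osteoclasts, 0 to 198 in T cells and 0 to 214 for the interaction. In malignant cells the log2 differences then ranged from -0.72 to 1.27 for H2-K1, -0.56 to 0.97 for H2-D1, -0.31 to 0.13 for H2-T23, -0.36 to 0.44 for B2m, -0.41 to 1.08 for Tap1, -0.34 to 1.02 for Tap2, -0.29 to 0.0689 for Tapbp, -0.55 to 1.76 for Psmb8, -0.57 to 1.50 for Psmb9 and -0.18 to 0.69 for Nlrc5. In macrophages they ranged from -0.20 to 0.47 for H2-K1, -0.0519 to 0.31 for H2-D1, -0.0922 to 0.43 for H2-T23, -0.16 to 0.31 for B2m, -0.28 to 0.68 for Tap1, -0.22 to 0.29 for Tap2, -0.25 to 0.45 for Tapbp, 0.0014 to 0.38 for Psmb8, -0.16 to 0.48 for Psmb9 and -0.17 to 1.06 for Nlrc5. In malignant cells edgeR and DESeq2 gave -0.0869 and -0.0845 for H2-K1, -0.0247 and -0.0216 for H2-D1 and -0.0405 and -0.0362 for B2m, and H2-T23 was 0.0082 without malignant cells carrying at least 3 macrophage markers; the cause was not tested. Genes called by limma numbered 48 in Epithelial, 7 in NK, 1 in Osteoclasts and 0 elsewhere. DESeq2 called 45 in malignant cells, 30 in all non-malignant cells, 15 in Epithelial, 1 in Fibroblast, 20 in Macrophage, 1 in Microglia and 2 in Osteoclasts, and edgeR called 0 in Epithelial, 17 in NK and 0 in Osteoclasts. Limma-voom and CPM of the summed UMIs each called 0 in Epithelial and 0 in Osteoclasts. Epithelial calls were 18 with a pseudocount of 0.1, 6 with no filter, 26 without high-mitochondrial cells and 28 without doublets, NK calls were 0 without doublets, and Microglia calls were 2 with a pseudocount of 10. With the replicate number as a block, calls were 2 in all non-malignant cells, 85 in Epithelial, 23 in NK, 3 in Osteoclasts and 57 in T cells. Over genes, the difference between replicates 1 and 2 of vehicle had an r with that of digoxin from -0.363 in malignant cells to 0.061 in T cells. This sets 1 pair of mice against 1 pair, so it cannot show whether mice with the same number share a batch. With the numbers crossed, an alternative chosen after seeing the data, calls were 189 in Epithelial, 2 in Fibroblast, 65 in Macrophage, 40 in Microglia, 16 in NK and 40 in Osteoclasts. Nlrc5 (0 to 66.0 CPM over all clusters) is limited by depth, and clusters under 20 cells in a mouse were not tested.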
